A study of Sus scrofa with 6 samples.

Results

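Aggrecan (ACAN), cartilage oligomeric matrix protein (COMP), cartilage intermediate layer protein (CILP) and type II collagen (COL2A1) were read by 9 of the 24123 probe sets of the Affymetrix Porcine Genome Array, 124 of which are controls. A probe set is a group of short probes against 1 transcript. The 9 were chosen by name, as every probe set called ACAN, COMP, CILP or COL2A1 by the annotation of the array or by the study's list of genes that changed between the sexes. There were 2 for ACAN, 2 for COMP, 2 for CILP and 3 for COL2A1. On that list stand 4 of the 9 (called listed probe sets here), 1 for each gene, and these 4 were selected on the difference between the sexes on the same arrays. Their differences between the sexes are therefore a description, and no test of them is given as support.

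RNA came from the aortic valve leaflets of 3 castrated male and 3 female pigs, 5 months old, of mixed breed and without valve disease, with 1 pig on each array. The endothelium had been scraped off before extraction, so that most of the RNA should come from valvular interstitial cells (VICs), the fibroblast-like cells within the leaflet. Male animals were castrated, so the contrast is of castrated males with females and not of intact males. All values are log2 intensities, on which a difference of 1 is a 2-fold difference, and differences are male minus female. In bulk tissue such as this, fewer cells of a type and less RNA per cell cannot be told apart.

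The 4 genes are known for cartilage. Aggrecan is a large proteoglycan whose chondroitin sulfate chains hold water and give the tissue its resistance to compression. Type II collagen forms the fibrils of cartilage, and COMP, a pentameric thrombospondin, binds collagens and helps in their assembly into fibrils. CILP is a secreted matrix protein of the middle layer of articular cartilage that also occurs in other connective tissues and can bind TGF-β1. Heart valves share parts of this program, since the spongiosa, the middle layer of the leaflet, is rich in proteoglycans.

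All 4 listed probe sets had lower values on every male array than on every female array, by 2.95-fold for COL2A1 to 4.90-fold for ACAN between the means of the sexes. The other 5 probe sets of the same genes differed by at most 0.30 on the log2 scale and overlapped between the sexes. Every male array lay below every female array at 11.4% of the 23999 probe sets other than controls, but since the 4 were selected on this contrast their share cannot be read against it. Mean values were lower in males at 9 of 9 probe sets of the 4 genes, which selection fixed for the 4 listed ones. The other 5 had log2 fold changes of only -0.30 to -0.02, and 12220 of the 23999 (50.9%) had a lower mean in males.

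**Figure D1:**
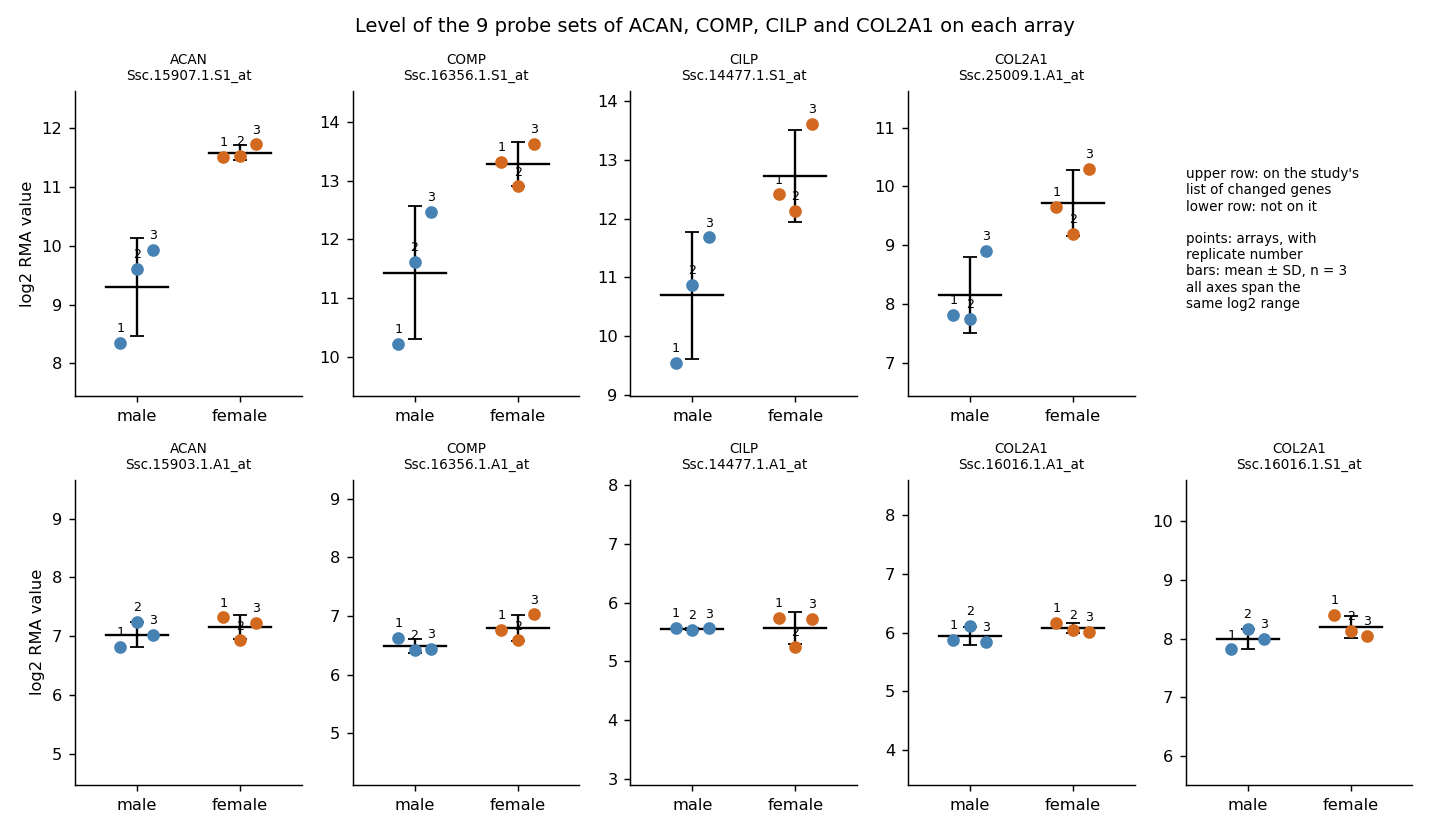
Log2 RMA value of each of the 9 probe sets on the 3 male (left, blue) and 3 female (right, orange) arrays, with replicate numbers, and mean ± SD in black. Males lie below females without overlap in the 4 panels of the upper row, with log2 fold changes of -2.29 (ACAN), -1.85 (COMP), -2.02 (CILP) and -1.56 (COL2A1), and overlap with females in the 5 panels of the lower row.

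ACAN, the proteoglycan core protein, had the widest gap between the sexes. Its listed probe set (Ssc.15907.1.S1_at) had values of 8.35, 9.61 and 9.93 in male replicates 1, 2 and 3, against 11.51, 11.53 and 11.73 in female replicates 1, 2 and 3. The lowest female was 1.58 above the highest male. Females were close together (11.59 ± 0.12, SD, n = 3), whereas males were spread over 1.58 on the log2 scale (9.30 ± 0.83, SD, n = 3). The log2 fold change was -2.29 with a standard error of 0.37, the twelfth largest fall among the 23999 probe sets. Male replicate 1 was 9.44-fold below the female mean and the highest male 3.16-fold below it.

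COMP differed by less and varied more among females. Ssc.16356.1.S1_at had values of 10.22, 11.61 and 12.46 in males, against 13.32, 12.90 and 13.63 in females. Here the highest male and the lowest female were 0.44 apart, less than the spread among males (2.24). The means were 11.43 ± 1.13 in males and 13.28 ± 0.37 in females (SD, n = 3 each), and the log2 fold change was -1.85 with a standard error of 0.52. Male replicate 1 carried much of it, since the fold below females was 3.61 with all arrays and 2.37 without that array.

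CILP had the largest range of the 9 probe sets, 4.07 on the log2 scale over the 6 arrays. The values at Ssc.14477.1.S1_at were 9.54, 10.87 and 11.68 in males, against 12.41, 12.14 and 13.61 in females. Females were spread over 1.47 at this gene, more than at ACAN (0.22) or COMP (0.73), and female replicate 3 alone was 1.20 above the next. The means were 10.70 ± 1.08 in males and 12.72 ± 0.78 in females (SD, n = 3 each), and the log2 fold change was -2.02 with a standard error of 0.58.

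COL2A1 is the least certain of the 4 names. Its listed probe set (Ssc.25009.1.A1_at) carries that name in the study's list only, and the annotation of the array names no gene for it. It had values of 7.82, 7.75 and 8.90 in males, against 9.65, 9.19 and 10.31 in females. Male replicate 3 lay 0.29 under the lowest female. The means were 8.16 ± 0.65 in males and 9.72 ± 0.56 in females (SD, n = 3 each), and the log2 fold change was -1.56 with a standard error of 0.38. The 2 probe sets that the annotation names COL2A1 did not share this pattern, with log2 fold changes of -0.13 (Ssc.16016.1.A1_at) and -0.21 (Ssc.16016.1.S1_at). Ssc.16016.1.S1_at had values of 7.81, 8.16 and 7.99 in males, against 8.40, 8.14 and 8.05 in females, so that male replicate 2 exceeded 2 of 3 females. These 2 followed each other over the 6 arrays (Pearson's r = 0.89), but not the listed probe set (r = 0.26 and 0.41). With the mean of each sex taken out, r with the listed probe set was -0.51 and -0.19. A lower level of type II collagen RNA in males therefore rests on 1 probe set of 3, whose gene could not be checked by sequence here.

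The second probe sets of ACAN, COMP and CILP were nearly flat. For ACAN, Ssc.15903.1.A1_at had values of 6.81, 7.24 and 7.02 in males, against 7.32, 6.93 and 7.22 in females (log2 fold change -0.13). For COMP, Ssc.16356.1.A1_at had 6.63, 6.42 and 6.43 in males, against 6.76, 6.58 and 7.03 in females (-0.30). CILP's Ssc.14477.1.A1_at had 5.57, 5.53 and 5.56 in males, against 5.74, 5.25 and 5.72 in females (-0.02), between the 22nd and the 28th percentile of each array, and its sign turned to a positive 0.07 without female replicate 1 and 0.06 without female replicate 3. Over all 6 arrays these 3 probe sets and the 2 unlisted ones of COL2A1 ranged over 0.33 to 0.61, whereas the 4 listed ones ranged over 2.56 to 4.07. For each of the 4 genes, then, 1 probe set separated the sexes and the others did not, and why they differ was not tested.

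The methods of the study name a filter on the coefficient of variation (CV, SD over mean), meant to drop values unlike among replicates, followed by limma, and do not say which CVs were kept. Here the CV was taken over all 6 arrays and its highest values were kept, which is the reverse of that stated purpose but returned the probe sets of the study's list exactly. With the 10% of probe sets of highest CV kept (2412 probe sets, CV of at least 6.50%) and a call at an adjusted p under 0.05 and at least 2-fold, 72 probe sets (2.99%) were lower and 111 (4.6%) higher in males. The 4 listed probe sets, with CVs of 10.2% to 13.1%, are among the 72, because the list is the same set of calls. CVs of the 5 other probe sets of these genes were 2.14% to 3.42%, so the filter removed them. Just inside the limit lay COMP (limma adjusted p = 0.0495), CILP (0.0489) and COL2A1 (0.0483), with ACAN further in (0.0099). Tested over all 23999 probe sets, limma called 33 (0.138%) lower and 40 (0.167%) higher in males, and 0 of the 9 probe sets, with adjusted p values of 0.0691 for ACAN, 0.143 for COL2A1, 0.176 for COMP and 0.180 for CILP. At an unadjusted p under 0.05 the same fit held 8.83% of all probe sets as lower and 8.08% as higher in males. The 4 listed probe sets are among the lower ones, as their selection on this contrast fixed, and 0 of the other 5 are. ACAN was called over all probe sets without male replicate 1 (limma adjusted p = 0.0236) or male replicate 3 (0.0334), and COL2A1 without male replicate 3 (0.0458), while COMP and CILP were not called with any array left out.

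Leaving out an array could not turn the direction at the listed probe sets, since every male array lay below every female array there. Direction was therefore fixed in advance and is no sign of stability. Sizes and calls both changed with the array left out. Without each array in turn the log2 fold change ranged over -2.61 to -1.82 for ACAN, -2.37 to -1.25 for COMP, -2.51 to -1.45 for CILP and -1.93 to -1.27 for COL2A1. ACAN was called with the CV filter in all 6 of these fits (limma adjusted p = 0.0031 to 0.0290). COMP, CILP and COL2A1 were each called only without male replicate 3 or without female replicate 2, and their limma adjusted p reached 0.154, 0.145 and 0.147 without male replicate 1.

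**Figure D2:**
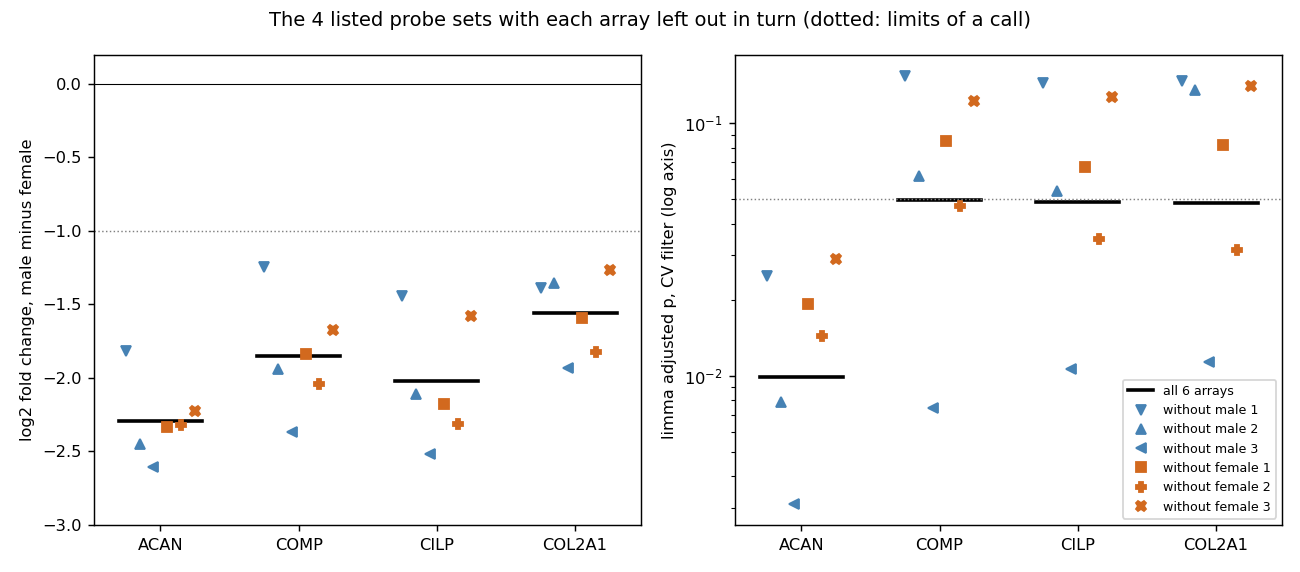
Log2 fold change (left) and limma adjusted p with the CV filter (right, log axis) of the 4 listed probe sets, with all 6 arrays (black bars) and with each male (blue) or female (orange) array left out. Every fold change stays below -1, whereas adjusted p values of COMP, CILP and COL2A1 cross 0.05 (dotted) in 4 of 6 omissions and those of ACAN in none.

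ACAN, COMP and CILP also moved together among animals of 1 sex, and COL2A1 followed them less closely. The choice of the probe sets by sex did not require this, but the CV filter favoured a wide spread over these same arrays. Male replicate 1 was the lowest of all arrays at ACAN, COMP and CILP, and male replicate 2 at COL2A1. Male replicate 3 was the highest male and female replicate 3 the highest female at all 4. Female replicate 2 was the lowest female at COMP, CILP and COL2A1, and female replicate 1, close to replicate 2, at ACAN. At COMP and CILP the order of the 6 arrays was the same.

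Distances from the mean of each sex show how far single animals stood apart. At the 4 listed probe sets male replicate 1 deviated by -1.21 to -0.34 (median -1.05), male replicate 3 by 0.63 to 1.03 and female replicate 3 by 0.14 to 0.89. Male replicate 2 deviated by -0.41 to 0.31, female replicate 1 by -0.31 to 0.03 and female replicate 2 by -0.58 to -0.06. Over all probe sets, 95% of deviations were within 0.29 to 0.46 in size, depending on the array. The filter had selected the 4 for a high CV over these arrays, so that their wide spread is part of how they were chosen. The array medians, 7.33 to 7.38, did not differ in this way.

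After the sex means were taken out, the deviations of COMP correlated with those of ACAN at r = 0.96 (rho = 0.89) and with those of CILP at r = 0.94 (rho = 1) over the 6 arrays. ACAN and CILP correlated at r = 0.87, CILP and COL2A1 at 0.84, COMP and COL2A1 at 0.74, and ACAN and COL2A1 at 0.54. Before the sex means were removed, r was 0.89 to 0.98 for the 6 pairs, part of which is the difference between the sexes that chose them. These are descriptions of 6 arrays, on which high values are common. Of 899 other probe sets with 1 annotated gene, a mean at or above the median and a range of at least 1, 28 had r over 0.9 with the deviations of ACAN, 40 with COMP, 39 with CILP and 12 with COL2A1. Of the 899, 6 were at least as like ACAN as COMP was, 41 as CILP was and 152 as COL2A1 was.

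**Figure D3:**
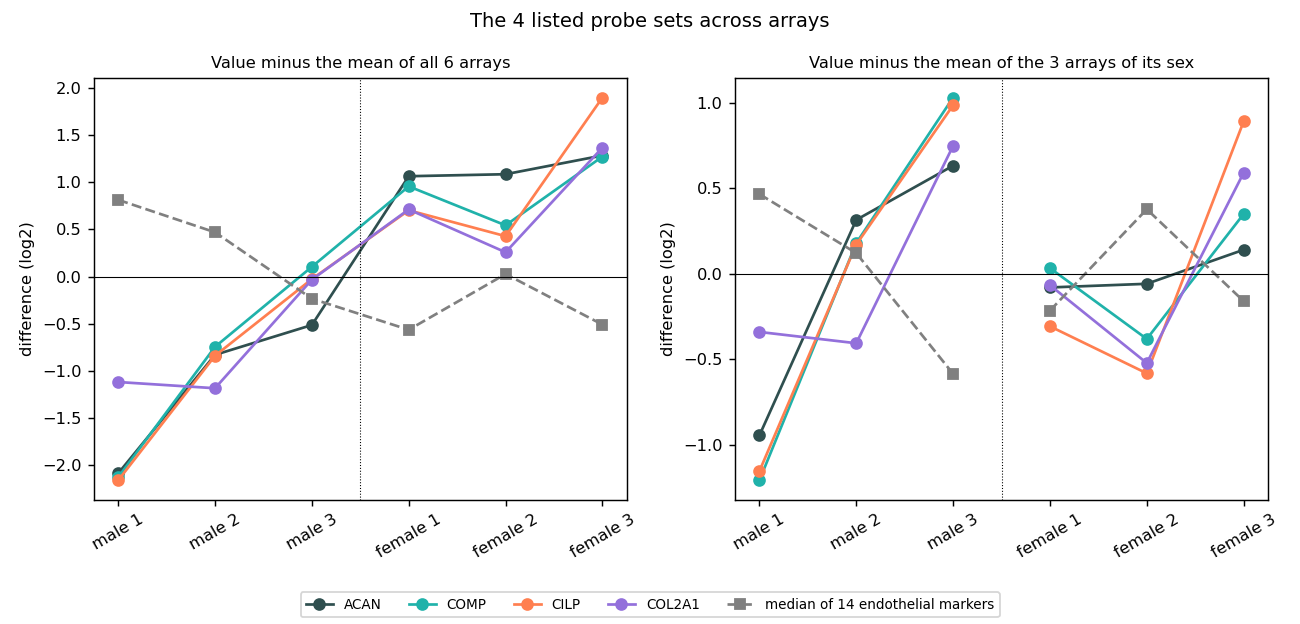
Values of the 4 listed probe sets (circles) and the median of 14 endothelial marker genes (gray squares) on each array, minus the mean of all 6 arrays (left) or of the 3 arrays of a sex (right), in log2 units. Lines join points of 1 gene and imply no order of the replicates. Male replicate 1 is lowest at ACAN, COMP and CILP and highest at the endothelial median. Female replicate 3 is the highest array at all 4 genes on the left, and male replicate 3 on the right.

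The 5 probe sets most like each listed one were sought among the same 899, first over the 6 arrays as they are. For ACAN they were ORM1, a plasma acute phase protein (r = 0.992), the growth factor receptor EGFR, the collagen-binding protein AEBP1, the complement receptor CR1 and the long noncoding RNA MEG3. COMP was most like MSS51 (r = 0.999), the small heat shock protein HSPB6, the adhesion molecule NCAM1, AEBP1 and PRELP, a small leucine-rich proteoglycan that binds collagen and perlecan. CILP was most like the chaperone HSPA8 (r = 0.995), the cell surface proteoglycan SDC1, TMEM45A, RNF149 and the microfibril protein MFAP2. COL2A1 was most like BAIAP2 (r = 0.984), the ubiquitin ligase WWP2, another probe set of HSPA8, the tetraspanin TSPAN7 and the folate enzyme SHMT1. AEBP1 and HSPA8 came up for 2 of the 4 genes each.

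By the deviations alone, which leave out the sex difference, ACAN was most like SLC39A14, AEBP1, EGFR, ORM1 and the cytokine receptor IL11RA (r = 0.960 to 0.981). COMP was most like MSS51, PTGS1, AEBP1, HSPB6 and NCAM1 (r = 0.978 to 0.997). CILP was most like LOC780435, SDC1, HSPA8, LRRC28 and TMEM45A (r = 0.977 to 0.994), and COL2A1 was most like WNK4, HSPA8, BAIAP2, SLC1A1 and CYP2B22 (r = 0.939 to 0.995). Mean values of these genes were lower in males except for LOC780435 and WNK4, with log2 fold changes of 0.27 and 0.51. AEBP1 at Ssc.16584.1.A1_at had values of 12.24, 12.84 and 13.08 in males, against 13.55, 13.52 and 13.80 in females. The HSPA8 probe sets need care, because 3 of them ran with the 4 genes (log2 fold changes of -0.97 to -0.75) and another, Ssc.16804.1.A1_at, did not, with 13.12, 12.97 and 12.54 in males, against 12.50, 12.87 and 12.59 in females. Some other named genes also had probe sets that did not follow. Log2 fold changes were 0.06 and 0.10 at other probe sets of ORM1, at values of at most 4.39. They were -0.05 at another of SDC1 and -0.10 at another of RNF149 (Ssc.6221.1.S1_at).

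Other genes of cartilage were not called. Of 24 further cartilage matrix genes only 4 could be matched to the annotation, whose median difference was -0.17 (log2) against -0.01 for all probe sets, 3 lower and 1 higher in mean in males, and 0 called in either comparison or at an unadjusted p under 0.05 in limma. Among them COL11A1, a partner of type II collagen in the cartilage fibril, had values of 5.48, 5.67 and 5.88 in males, against 6.13, 5.83 and 5.85 in females, and the hypertrophic collagen COL10A1 had a log2 fold change of -0.08. SCRG1, a protein first seen in scrapie brain and also made by chondrocytes, had a log2 fold change of -0.53. CHI3L1, a secreted glycoprotein of chondrocytes and macrophages, varied between 6.01 and 10.07 among males, against 6.31 and 8.41 among females (0.76). COL9A1 and MATN3 were not measured here.

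Transcription factors listed for cartilage formation were not called lower. This list was not limited to factors that activate the 4 genes. SOX9, which activates COL2A1 and ACAN, had values of 8.00, 8.59 and 8.92 in males, against 8.62, 7.47 and 7.72 in females (log2 fold change 0.57, limma adjusted p = 0.445). Its partner SOX6 was at 4.89 in males and 4.89 in females, below the 25th percentile of probe set means (5.55), and SOX5 was not measured. Over the 12 measured genes of this list the median was 0.15, with 4 lower and 8 higher in mean and 0 called. The other large log2 fold changes of the list were those of EGR1 (0.68, but -0.25 at another of its 3 probe sets), SNAI1 (-0.57) and PRRX1 (-0.57).

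Of proteoglycans and their partners, 13 of 31 listed genes were measured (list median -0.21). All males lay below all females for 5 of the 13 (11.4% over all probe sets) and above them for 1 (11.1%), and 0 were called. PRELP, which was among the genes most like COMP, had values of 13.36, 13.75 and 14.14 in males, against 14.27, 14.19 and 14.52 in females (-0.58). Asporin (ASPN) had a log2 fold change of -0.55 and the syndecan SDC1 one of -0.97 (-0.05 at another of its 4 probe sets), while SDC2 had one of 0.62. The other 2 without overlap, named after their values were seen, were biglycan (BGN, -0.44) and decorin (DCN, -0.38), proteoglycans that bind collagen fibrils. Versican (VCAN), the main large proteoglycan of the leaflet and a relative of aggrecan, had values of 13.35, 13.59 and 13.89 in males, against 13.75, 13.52 and 13.52 in females (log2 fold change 0.01, limma adjusted p = 0.983). HAPLN1, the link protein that ties aggrecan and versican to hyaluronan, had one of 0.03. The 14 measured genes of glycosaminoglycan synthesis had a median of -0.09 with 0 called, and 2 stood apart. PAPSS2, which makes the sulfate donor for the chains of aggrecan, had values of 10.11, 10.62 and 10.03 in males, against 11.84, 10.87 and 11.19 in females (-1.05, limma adjusted p = 0.157). UST, a sulfotransferase of chondroitin and dermatan sulfate, had a log2 fold change of -0.60.

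COMP belongs to the thrombospondins, of which 3 others were measured. THBS2 had values of 12.05, 12.45 and 12.98 in males, against 13.30, 13.38 and 13.26 in females (log2 fold change -0.82, limma adjusted p = 0.168). THBS1 had 11.68, 11.89 and 11.94 in males, against 12.03, 12.49 and 12.53 in females (-0.51). THBS3 went the other way, with 11.07, 10.54 and 10.48 in males, against 9.78, 9.74 and 10.44 in females (0.71). Males lay below females without overlap at THBS2 and THBS1, as at 11.4% of all probe sets. At THBS3 they lay above, as at 11.1% of all probe sets, but narrowly (10.48 against 10.44). Of the 3, 0 were called.

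Genes of tendon and fibrocartilage held 1 call. FIBIN, a secreted protein, fell 3.90-fold in males with the CV filter, with values of 9.04, 9.89 and 10.31 in males, against 11.34, 11.14 and 12.64 in females (log2 fold change -1.96, limma adjusted p = 0.0334, 0.136 over all probe sets). Its other probe set had a log2 fold change of -0.17. Its call was lost on leaving out male replicate 1 (0.102) or female replicate 3 (0.0966). Tenascin C (TNC) had a log2 fold change of -1.04, and the other 4 of the 6 measured genes had -0.12 to 0.16 at their probe sets of highest mean. Another probe set of 1 of them, POSTN, had -1.43. Fibrillar collagens and collagen VI had a lower mean in males in 7 of 7 measured genes, a list median of -0.33 and 0 called. COL5A2 (-0.58), COL5A1 (-0.55, but 0.05 at another of its 6 probe sets) and COL6A3 (-0.50) had the largest differences. For the 14 genes of procollagen processing and cross-linking the median was -0.14, with 0 called and the lysyl oxidases LOXL1 (-0.47) and LOX (-0.43) in front.

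Proteases that cut these matrix proteins, with their inhibitors, had a median log2 fold change of -0.07 over 19 measured genes, 7 of which lay below the 25th percentile in mean, and 0 were called. The aggrecanase ADAMTS1 had values of 13.58, 13.66 and 13.18 in males, against 13.57, 13.84 and 13.54 in females (-0.17). MMP13, the collagenase that cleaves type II collagen, was at 4.17 in males and 4.20 in females, near the background, and ADAMTS4 and ADAMTS5 were not measured. TIMP2 (-0.60), TIMP3 (-0.50), MMP2 (-0.47) and TIMP1 (0.52) had the largest differences.

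Of signals of cartilage growth 1 was called, higher in males. The 22 measured growth factors and receptors split evenly, 11 with a lower and 11 with a higher mean, around a list median of 0.02. NPPC, the C-type natriuretic peptide that promotes growth of the growth plate, rose 2.92-fold with the CV filter (limma adjusted p = 0.0334, 0.0870 over all probe sets). It had values of 9.45, 9.45 and 8.52 in males, against 7.32, 7.93 and 7.54 in females, and was called only without male replicate 3 or without female replicate 2 when arrays were left out (adjusted p up to 0.110). PTHLH, the hormone that delays chondrocyte hypertrophy, had a log2 fold change of 1.35, FGF18 one of 1.24 and TGFB1 one of 0.84, none of them called. In these 4 genes male replicate 3 was the male nearest to the females, as it was at the 4 matrix genes. Of 12 measured receptors for cartilage matrix, 6 had a lower and 6 a higher mean, with 0 called and the integrins ITGB3 (1.20) and ITGA5 (0.90) highest. All males lay above all females for 5 of the 12 (11.1% over all probe sets) and below them for 0 (11.4%).

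**Figure D4:**
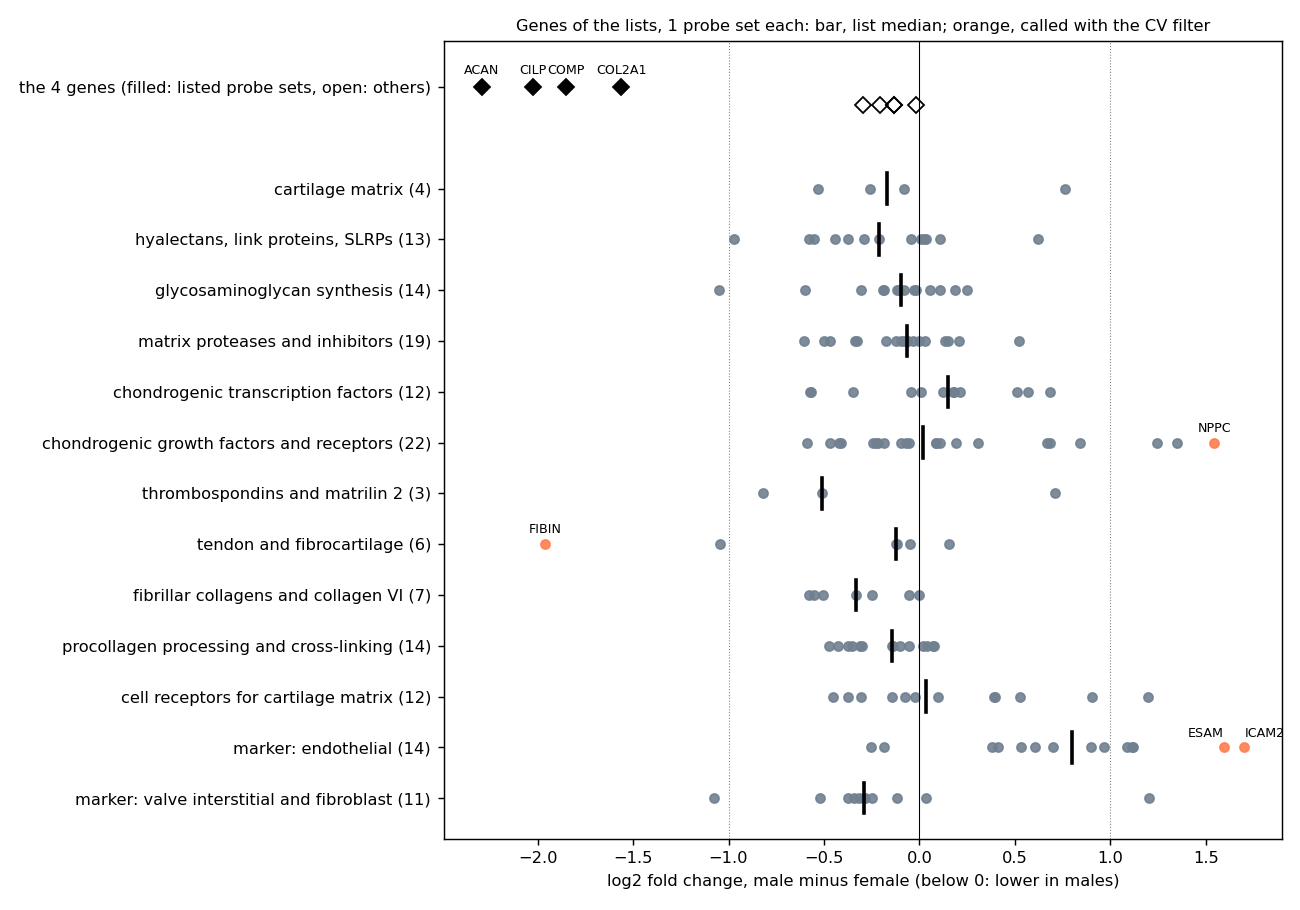
Log2 fold change (male minus female) of each measured gene of 13 lists, 1 point per gene, with list medians as bars, genes called with the CV filter in orange and the 9 probe sets of ACAN, COMP, CILP and COL2A1 on top. The 4 listed probe sets lie at -2.29 to -1.56, where FIBIN (-1.96) is the only list gene, and the cartilage and proteoglycan lists have medians of -0.17 and -0.21.

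Most markers of endothelial cells had higher means in males, opposite to the 4 genes. Means were higher in males for 12 of 14 measured markers (list median 0.80 on the log2 scale). Of all probe sets, 50.9% had a lower mean in males. ICAM2 (1.70, limma adjusted p = 0.0260) and ESAM (1.59, adjusted p = 0.0395, with other probe sets down to -0.26) rose with the CV filter. Over all probe sets 0 were called, and 7 were higher at an unadjusted p under 0.05 in limma, as were 8.08% of all probe sets. Neither gene was called without male replicates 1 or 2 or female replicate 3 (adjusted p up to 0.133), nor was ESAM without female replicate 1 (0.0818). The median over the list was 10.43, 10.09 and 9.38 in males, against 9.05, 9.64 and 9.10 in females, and the log2 of its summed linear values ran from 13.89 to 15.00 in males, against 13.36 to 14.06 in females. One of the 14 had a mean below the 25th percentile. PECAM1, a defining marker, had values of 13.69, 13.31 and 12.61 in males, against 12.16, 12.28 and 11.83 in females. VWF, another, overlapped, with 10.58, 10.90 and 9.68 in males, against 9.27, 11.33 and 9.41 in females (log2 fold change 0.38). ERG (-0.25) and KDR (-0.19) had lower means in males. Male replicate 1, lowest at ACAN, COMP and CILP, was thus the highest array by the median of the endothelial list. Female replicate 2, lowest of the females at 3 of the 4 genes, was the highest female. Its median (9.64) was also above that of male replicate 3 (9.38), which lay below it at the 4 genes. The part of endothelial RNA in the values of the 4 genes was not tested.

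Markers of VICs and fibroblasts had a median log2 fold change of -0.29 over 11 measured genes, 9 lower and 2 higher in males, with 0 called. Their list median was 12.52, 12.59 and 13.11 in males, against 12.88, 13.29 and 12.91 in females, and the log2 of the sum ran from 16.36 to 16.57 in males, against 16.56 to 16.76 in females. Vimentin (VIM) was at 14.40 ± 0.04 in males and 14.37 ± 0.06 in females (SD, n = 3 each). TCF21, a transcription factor of fibroblast precursors, had a log2 fold change of -1.08 and S100A4 one of 1.20. Lists of smooth muscle (-0.04), cardiomyocyte (-0.02), adipocyte (-0.07), lymphocyte (0.07) and bone cells (0.03) had medians near 0, and macrophage (0.26) and nerve or melanocyte markers (-0.24) differed little more, with 0 called in these 7. Of these, 6 of 10 cardiomyocyte and 4 of 7 bone markers had means below the 25th percentile.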

How the data were processed

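Gene expression was measured on 6 Affymetrix Porcine Genome Arrays, 1 for each of 3 castrated male and 3 female pigs. The deposited values are log2 intensities that the authors made from the scanned arrays with robust multi-array averaging (RMA, which subtracts background, equalizes the distributions of the arrays and summarizes the probes of a set) in R 2.12.0. This normalization was not repeated, and intensities near the background are compressed. The number of arrays limits the precision. The p-values set the difference between the sexes against the spread among these animals within each sex. No columns were left out.

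In R 4.3.3, the linear models of limma 3.58.1 with moderated variances (eBayes) compared males with females, without covariates and with Benjamini-Hochberg adjustment, once on the 2412 probe sets of highest CV, 5 of them controls, and once on the 23999 probe sets other than controls. The share of 10% was not stated in the text of the methods and was taken because it returns the study's list exactly. The script was tested on simulated data. The annotation gives 1 gene for 10069 probe sets, several for 198 and none for 13732. Lists held 399 genes, of which 199 were measured, each by its probe set of highest mean. Named genes are all probe sets of the 4 genes, called list genes, up to 4 list genes of largest difference, textbook partners, and the 5 probe sets most like each gene. The members and lists were chosen with earlier results of these data known. Alternatives were each array left out, the replicate number as a block, an intensity trend, median-centred arrays, array weights, other CV filters and no dim probe sets. Figures were drawn with matplotlib 3.10.9. The listed probe set of COL2A1 could not be matched to a sequence, and no coordinates are given, since the files name no genome build.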

Additional observations from a re-analysis of the deposited data

How the results depend on the processing

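Counts of called probe sets depended on the arrays. With the CV filter 183 were called, 56 to 391 with 1 array left out, 302 with the replicate number as a block and 530 with array weights. Over all probe sets 73 were called, 13 to 285 with 1 array left out, 204 with the replicate block and 280 with array weights. The highest counts of the omissions came without male replicate 3 and the lowest without male replicate 1 (CV filter) or 2 (all probe sets). Other settings gave 149 to 261 and 65 to 86. The labels do not say whether the replicate numbers pair the pigs. Correlations of deviations (-0.10, 0.01 and 0.27 for numbers 1, 2 and 3) cannot decide it. What the block stands for is therefore unknown, and no paired reading is given. Over all probe sets ACAN and COL2A1, were called under the block (limma adjusted p = 0.0405 and 0.0246) and with array weights (0.0292 and 0.0374). COMP was not called with an intensity trend (limma adjusted p = 0.0713), nor were COMP (0.0513) and CILP (0.0521) with 20% of probe sets kept. The log2 fold changes of the 9 probe sets moved by less than their SD within sexes (pooled over both) in all 81 alternatives. This includes the turned sign of the flat CILP probe set. Leaving out 1 of 3 arrays cannot move a fold change by that much, and the block leaves it unchanged. For these alternatives the result was therefore fixed in advance and is no sign of stability. Counts of called list genes held in 355 of 380 alternatives. Most of these counts were 0 in the main setting and could only rise, so that this is no sign of stability. The cause of the changes between settings was not tested.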
